A study of Mus musculus with 12 samples.

Results

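The genes that bring glucose into cells, break it down to pyruvate or lactate and store it as glycogen were followed in mouse cerebellar cortex under 3 diets. They comprised 31 genes picked by symbol, namely 2 glucose transporters, 2 hexokinases, 12 further enzymes of glycolysis, 2 lactate dehydrogenases, 3 subunits of pyruvate dehydrogenase, 3 pyruvate dehydrogenase kinases, 2 PFKFB enzymes and 5 glycogen genes. All 31 were found among the 54752 genes of the count table, and all 31 had enough reads to be tested. The RNA came from wild-type male F1 hybrid C57BL6J/FVB mice aged 12 weeks, with 4 libraries from mice fed ad libitum (AL), 4 from mice on dietary restriction (DR) and 4 from mice on a ketogenic diet (KD). DR mice received a reduced portion once a day, just before the dark period, whereas AL mice had food at all times. Mice of both diets were dissected early in the dark period, and DR mice were not given the meal of that day. The missed meal thus cannot be told apart from the restriction itself in the comparison of DR with AL. The AL and DR libraries had been chosen by RNA quality from a larger number of mice. Each AL and DR library was from a separate mouse. For the KD libraries, the composition of the diet, its start, the feeding state and hour at dissection, any choice by RNA quality and whether each was from a separate mouse are not given in the sources used here, so that these cannot be told apart from the diet in the comparisons with KD. The dissected piece held folia of the hemisphere, paravermis and vermis and no cerebellar nuclei, so that neurons, Bergmann glia, other glia and vessels were measured together.

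Glucose crosses the blood-brain barrier through the transporter encoded by Slc2a1 and enters neurons mainly through that of Slc2a3. Hexokinases trap it as glucose 6-phosphate, glycolysis converts it to pyruvate, lactate dehydrogenases interconvert pyruvate and lactate, and the pyruvate dehydrogenase complex passes pyruvate on to mitochondrial oxidation unless one of its kinases has switched it off. Brain glycogen is held mostly by astrocytes, and on a ketogenic diet or during fasting ketone bodies replace part of the glucose used as fuel.

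Of the 31 genes, 1 was called between DR and AL, 3 between DR and KD and none between KD and AL. Over all genes tested, the shares called were 3.06%, 4.94% and 0% in the same order. Hk2 differed most. On DR, Hk2 was 29.6% lower than on AL and 28.8% lower than on KD, and it was the only one of the 31 genes called between DR and AL. Between DR and KD, Ldha was also lower and Pdk2 higher on DR. No member was called between KD and AL. Together the 31 genes held between 0.875% and 0.952% of the reads of a library, and the libraries had between 31712084 and 40798644 counted reads.

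Levels of different genes were compared as CPM, the counts scaled by library size and TMM factor, divided by the gene length in kilobases, written CPM per kb and averaged over the 12 libraries. That length covers all annotated exons of a gene and can exceed that of the transcripts present, so contrasts between genes depend on it. On this scale the members spanned from 1.22 CPM per kb for Gbe1, the glycogen branching enzyme, to 281 for Aldoa, an aldolase. Pkm (265 CPM per kb), Gapdh (249) and Ldhb (229), which encode a pyruvate kinase, glyceraldehyde 3-phosphate dehydrogenase and the B subunit of lactate dehydrogenase, followed Aldoa. In several families 1 gene was well above its relatives on this scale. Hk1 was at 42.8 CPM per kb against 3.24 for Hk2, and Pfkm at 195 against 28.8 for Pfkp and 18.8 for Pfkl, the other phosphofructokinases. The exons of Pfkp cover 13401 bases and those of Pfkm 3340. In CPM the gap was smaller, with AL means of 632 for Pfkm and 383 for Pfkp. Likewise Pdk2 was at 61.8 CPM per kb, while Pdk3 was at 4.70 and Pdk1 at 2.63. The glycogen phosphorylases Pygb (29.7 CPM per kb) and Pygm (20.2) were closer to each other, and glycogen synthase, Gys1, was at 5.27. Hk2, Pfkfb3, Pdk1 and Gbe1, all below 4 CPM per kb, were thus the least expressed members on this scale, with 447 to 924 reads per library for Hk2.

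**Figure D1:**
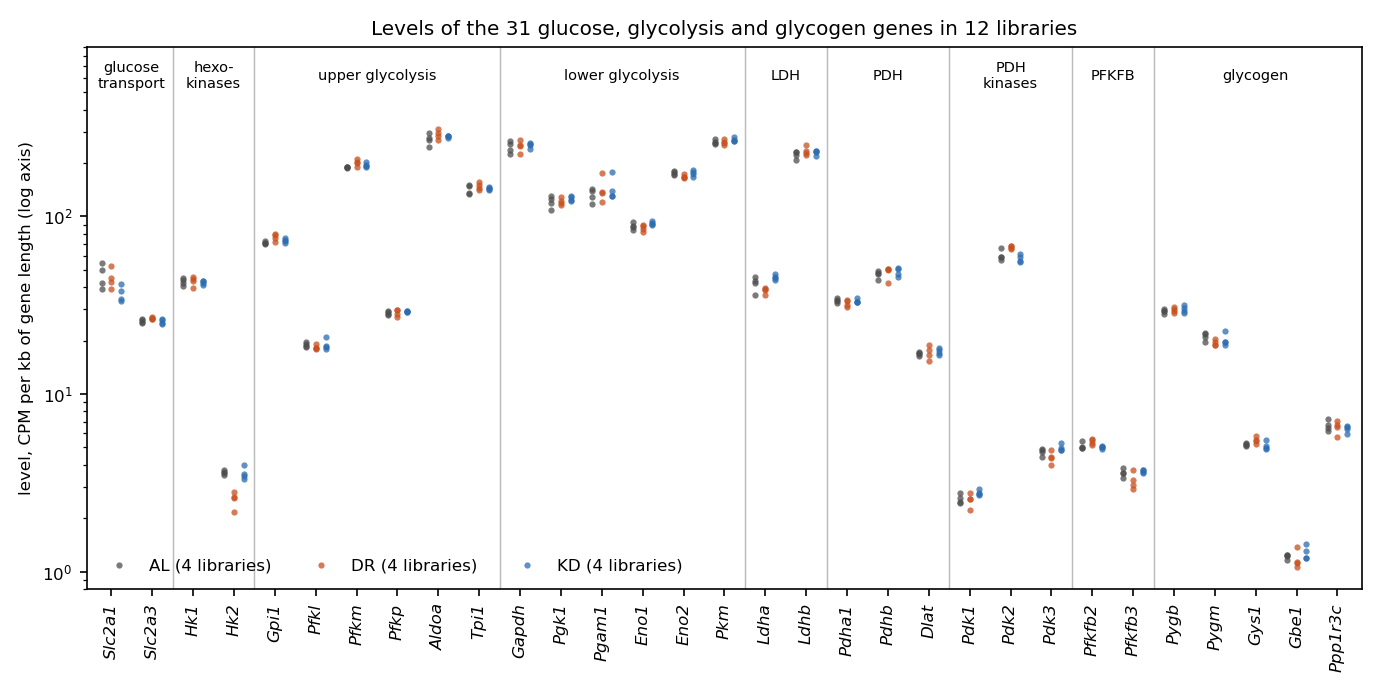
Level of each of the 31 genes in CPM per kb of gene length (log axis), one point per library and 4 libraries per diet, grouped by role. The members spread from 1.22 (Gbe1) to 281 (Aldoa) CPM per kb on average, and the diets lie on top of each other for most genes, while the 4 DR points of Hk2 sit below the AL and KD points.

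Each pair of diets was compared across all genes with edgeR's quasi-likelihood test, and a gene was called at a Benjamini-Hochberg adjusted p under 0.05. Between DR and AL 1 of the 31 members was called, where 3.06% of the 19052 genes tested were (583 genes, 43.2% of them higher on DR, or 57.0% when counts were scaled by library size only). Between KD and AL no member was called, as none of the 19036 genes was (0%). At an unadjusted p under 0.05 2 members and 928 genes (4.87%) passed in that comparison, and DESeq2 called 10 genes and no member. Between DR and KD 3 of the 31 were called, against 4.94% of 19087 genes (942 genes, 50.8% higher on DR, or 62.1% scaled by library size only). Over the 3 diets together, Hk2, Ldha and Pdk2 were called, against 4.52% of 19557 genes. With each library left out in turn, Hk2 was called over the 3 diets in all 12 fits, Pdk2 in 5 (without any one AL library or KD replicate 2) and Ldha in 3 (without AL replicate 1, 3 or 4). Scaled by library size only, Ldha was not called over the 3 diets (adjusted p = 0.0584). Comparisons that involve the same diet share its 4 libraries and are not independent of each other.

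Most differences were small and narrowly bounded. The 31 genes had a median log2 fold change of 0.01 on DR against AL (0.00 over all genes tested), 0.04 on KD against AL (0.00) and -0.02 on DR against KD (0.00). Their median absolute log2 fold change was 0.06, 0.04 and 0.05 in the same order, where all genes tested gave 0.10, 0.06 and 0.10 and the 11087 genes at least as abundant as the lowest member 0.07, 0.04 and 0.07. The 95% interval of the fold change lay entirely within 0.25 log2 units of 0 in 23, 28 and 23 of the 31 members, against 7481, 9557 and 7802 of all genes tested and 7430, 9390 and 7703 of those 11087 genes. At an unadjusted p under 0.05, 4, 2 and 6 members passed, where 18%, 4.87% and 18.7% of all genes did. The libraries of the 2 diets did not overlap at all in 2 members between DR and AL (10.9% of all genes), in none between KD and AL (2.96%) and in 6 between DR and KD (11.8%).

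**Figure D2:**
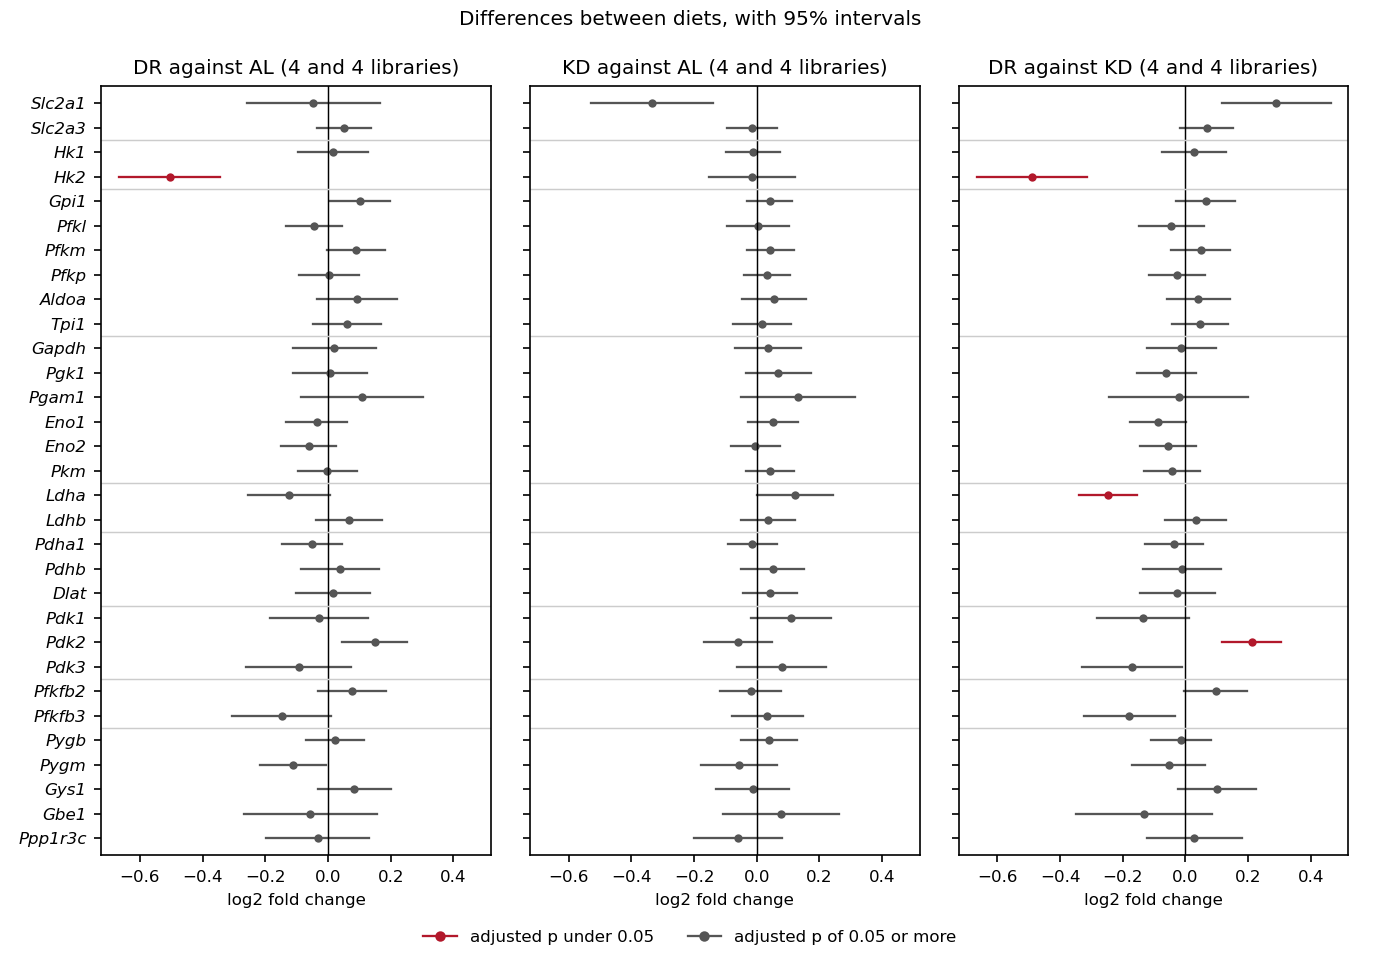
Log2 fold change of each member (point) with its 95% interval (line) for DR against AL, KD against AL and DR against KD, from fits on 4 and 4 libraries each. Red marks an adjusted p under 0.05, which Hk2 has in the left and right panels and Ldha and Pdk2 in the right panel only, while most other intervals cross 0.

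Hk2 (ENSMUSG00000000628.10, chromosome 6 of GRCm38.p6, 82725025 to 82774454, minus strand) encodes hexokinase 2, an inducible, mitochondria-binding enzyme best known from muscle, fat and growing cells. It was at 21.7, 20.9, 22.2 and 21.5 CPM in AL replicates 1 to 4. In the DR libraries it was at 15.8, 16.7, 12.9 and 15.4 CPM, and in the KD libraries at 19.7, 21.2, 20.5 and 23.8 CPM. Every DR library was thus below every AL and every KD library, and the DR library nearest to them was replicate 2. The mean was 21.6 ± 0.516 CPM on AL, 15.2 ± 1.63 on DR and 21.3 ± 1.76 on KD (SD, n = 4 each). Against AL the log2 fold change on DR was -0.51 (standard error 0.08, 95% interval -0.67 to -0.34, adjusted p = 0.00253 in edgeR's test), and against KD it was -0.49 (standard error 0.08, adjusted p = 0.00264). Between KD and AL it was -0.01, with an interval from -0.15 to 0.12. Hk2 remained called in both DR comparisons with each library left out in turn, and no exon of another gene or shared sequence window bore on its reads. The second hexokinase, Hk1, the main form in neurons, had a mean of 365 ± 17.1 CPM on AL, 369 ± 22.9 on DR and 362 ± 9.17 on KD (SD, n = 4 each), and its interval between DR and AL ran from -0.10 to 0.13 on the log2 scale.

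Levels of cell type markers differed between the diets beside Hk2. Summed over 10 genes, markers of Bergmann glia and astrocytes were at 2765 to 2879 CPM on AL, 2481 to 2552 on DR and 2663 to 2776 on KD, and 4 of the 10 (Aqp4, Hopx, Gja1 and Fabp7) were called lower on DR than on AL. The 10 Purkinje cell markers summed to 8493 to 9033 CPM on AL, 7102 to 8197 on DR and 8355 to 8593 on KD, with 3 of the 10 called lower on DR than on AL, Car8 and Doc2b among them. The 10 granule cell markers overlapped between all diets, at 7013 to 7665, 7221 to 7561 and 7153 to 7504 CPM. The lists of 10 oligodendrocyte and 10 microglia genes had sums of 2333 to 2965 and 78.9 to 82.6 CPM on AL, 2180.4 to 2706 and 73.5 to 76.8 on DR, and 2572 to 2785 and 76.4 to 87.7 on KD, and 1 oligodendrocyte gene and no microglia gene was called lower on DR than on AL. Of 8 choroid plexus and meningeal genes 7 were tested between DR and AL, and none was called. The sums over all 8, at 470.3 to 799 CPM on AL, 669.6 to 825 on DR and 493 to 704 on KD, overlapped. On DR against KD, 4 of the 10 genes of Bergmann glia and astrocytes (Aqp4, Hopx, Sox9 and Fabp7), 3 of the 10 Purkinje cell markers (Car8 and Doc2b among them) and 2 of the 10 oligodendrocyte genes (Mag among them) were called lower. In that comparison 2 granule cell markers were called higher (Cbln3 and Chn2) and 1 lower (Fat2), no microglia gene was called, and of the choroid plexus and meningeal genes Ptgds was called higher and Ttr lower. On KD against AL no marker was called. No marker on these lists was at 0 in all libraries. The part of these markers in the levels of Hk2, Ldha and Pdk2 was not tested, and in a piece of tissue fewer cells of a type and less RNA per cell cannot be told apart.

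The glucose transporters were not called in any comparison, although Slc2a1 came close between DR and KD. Slc2a1, the transporter of the blood-brain barrier and of glia, was at 148, 191, 175 and 136 CPM in the AL libraries and at 137, 149.9, 185 and 159 CPM in the DR libraries. In the KD libraries it was at 146, 133, 119.9 and 116 CPM. The KD libraries were the lowest as a group but overlapped with both other diets through KD replicate 1. Between DR and KD the log2 fold change was 0.29 (standard error 0.08, 95% interval 0.12 to 0.46, adjusted p = 0.0531 in edgeR's test). Between KD and AL it was -0.33 (standard error 0.09, 95% interval -0.53 to -0.14), with the lowest unadjusted p of the 31 members in that comparison, 0.00237, but an adjusted p of 0.924. DESeq2 called the difference between DR and KD (adjusted p = 0.0154), as did edgeR with scaling by library size only (0.0377), without the filter on low counts, without DR replicate 1 or without KD replicate 1. Without that filter the difference between KD and AL was also called by edgeR (adjusted p = 3.29e-09). The log2 fold change of Slc2a1 stayed at -0.33, while that setting called 118 genes where the main fit called none. The low p-value thus came with the setting and not with a larger difference. Slc2a1 also had the second largest spread of all members, with a coefficient of variation of 13.1% within diets. The 10 endothelial markers summed to 225 to 258 CPM on AL, 230.4 to 239 on DR and 241 to 253 on KD, and none of them was called between KD and AL, while 1 (Tie1) was called lower on DR than on KD and on AL. All 5 erythroid markers were lower on KD than on AL at an unadjusted p under 0.05. All 5 were also lower on DR than on AL, 1 of them at an unadjusted p under 0.05. Their sums were 275 to 423 CPM on AL, 176 to 494 on DR and 238 to 269.9 on KD. None of them was called, and their part in the level of Slc2a1 was not tested. Slc2a3, the neuronal transporter, was at 182 to 193 CPM on AL, 191 to 197 on DR and 178 to 191 on KD. Its DR libraries lay above its KD libraries by a small margin (log2 fold change 0.07, adjusted p = 0.394).

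Of the 12 enzymes of glycolysis after hexokinase, none was called in any comparison. Between DR and AL 5 of the 6 enzymes from glucose 6-phosphate to triose phosphates had a positive and 1 a negative fold change, from -0.04 (Pfkl) to 0.10 (Gpi1). Pfkm, the phosphofructokinase with the highest level here, was at 637, 632, 635 and 623 CPM on AL and at 674, 637, 669 and 707 CPM on DR. Its lowest DR library lay just above its highest AL library, and the KD libraries, at 632 to 680.0 CPM, overlapped with both (DR against AL, log2 fold change 0.09, adjusted p = 0.295). Gpi1, glucose 6-phosphate isomerase, was at 454 to 467 CPM on AL, 463 to 517 on DR and 457 to 487 on KD, and was 0.10 higher on DR than on AL on the log2 scale (unadjusted p = 0.0358, adjusted p = 0.239). In Pfkm and Gpi1 exons of other genes cover 10.7% and 11.5% of the exonic bases, which makes their counts less certain.

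From triose phosphates to pyruvate, all 6 enzymes were between -0.09 and -0.01 on the log2 scale on DR against KD, and between -0.06 and 0.11 on DR against AL. Eno1, an enolase found in all cells, was at 498, 477, 453 and 471 CPM on AL and at 479.7, 456, 442 and 473 CPM on DR. On KD it was at 504, 482, 488 and 493 CPM, just above every DR library. Its log2 fold change on DR against KD was -0.09 (95% interval -0.18 to 0.00, adjusted p = 0.27). Pgam1, phosphoglycerate mutase, had the largest spread of all members, 13.97% within diets. Its libraries were at 216 to 261 CPM except for DR replicate 2 and KD replicate 4, at 322 and 324 CPM. Those 2 libraries were also the highest in the processed copy Pgam1-ps2, at 103 and 98.5 CPM. Of the windows of 150 bases in Pgam1, 32.2% also occur in that copy, which had 32.9% as many reads as Pgam1, so the 2 values cannot be taken as separate measurements.

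Ldha (ENSMUSG00000063229.15, chromosome 7, 46841475 to 46855627), the lactate dehydrogenase subunit typical of lactate-producing tissue, was lower on DR than on KD. Its AL libraries were at 151, 139.9, 119.8 and 143 CPM. The DR libraries were at 131, 119, 127 and 129 CPM and the KD libraries at 150.2, 149, 145 and 157 CPM. All DR libraries were below all KD libraries, and the AL libraries overlapped with both, with AL replicate 3 among the DR values. The log2 fold change on DR against KD was -0.25 (standard error 0.04, 95% interval -0.34 to -0.15, adjusted p = 0.00386 in edgeR's test). On DR against AL it was -0.13 (standard error 0.06, adjusted p = 0.298), and on KD against AL 0.12 (unadjusted p = 0.0484, adjusted p = 0.994). Without AL replicate 3, Ldha was also called between DR and AL, at a log2 fold change of -0.19 and an adjusted p of 0.0448. AL replicate 3 was the lowest AL library in 14 of the 31 members and the highest in 8. AL replicate 4 was the lowest in 11. AL replicate 3 was also lowest in 9 of 14 enzymes, those of glycolysis after hexokinase and the lactate dehydrogenases. Ldha and Ldhb are among those 9. Ldhb, the subunit that dominates in this tissue, had means of 351 ± 16.3 CPM on AL, 367 ± 19.8 on DR and 359 ± 10.4 on KD (SD, n = 4 each), with overlapping libraries throughout.

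Among the pyruvate dehydrogenase kinases, which switch the complex off, Pdk2 was higher on DR than on KD. Pdk2 (ENSMUSG00000038967.13, chromosome 11, 95026258 to 95041354, minus strand) was at 188, 188, 209 and 179 CPM on AL and at 208, 215, 215 and 210.1 CPM on DR. On KD it was at 176, 195, 175 and 186 CPM. The DR libraries lay above all KD libraries and above all AL libraries but replicate 3. The log2 fold change was 0.21 against KD (standard error 0.04, 95% interval 0.12 to 0.31, adjusted p = 0.0112 in edgeR's test) and 0.15 against AL (standard error 0.05, adjusted p = 0.117). Pdk2 was not called against KD without KD replicate 1 (adjusted p = 0.0522), and was called against AL without AL replicate 3 (log2 fold change 0.20, adjusted p = 0.0221). Pdk1, a kinase induced by hypoxia, was at 19.0 to 21.6 CPM on AL, 17.3 to 21.5 on DR and 20.9 to 22.8 on KD, and Pdk3 at 11.3 to 12.5, 10.2 to 12.4 and 12.3 to 13.5 CPM. Neither was called, at log2 fold changes of -0.14 and -0.17 on DR against KD. The subunits of the complex itself, Pdha1, Pdhb and Dlat, had log2 fold changes between -0.05 and 0.05 in all 3 comparisons.

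The PFKFB enzymes make fructose 2,6-bisphosphate, which speeds up phosphofructokinase, and their 2 members had opposite signs on DR. Pfkfb3 was at 27.0, 29.0, 27.2 and 25.3 CPM on AL and at 22.0, 28.1, 23.3 and 24.8 CPM on DR. On KD it was at 28.2, 27.3, 28.2 and 27.4 CPM. Of the DR libraries 3 were below every AL and KD library and replicate 2 was among them. The log2 fold change on DR was -0.15 against AL (adjusted p = 0.314) and -0.18 against KD (adjusted p = 0.157), and without DR replicate 2 it was -0.25 against KD and was called (adjusted p = 0.0302). Pfkfb2 was at 35.9 to 39.4 CPM on AL, 37.4 to 40.4 on DR and 35.6 to 37.1 on KD. Its DR libraries lay above its KD libraries, with a log2 fold change of 0.10 (adjusted p = 0.29), and exons of other genes cover 19.5% of its exonic bases.

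No glycogen gene was called in any comparison. Pygm, the muscle-type glycogen phosphorylase that astrocytes also express, was at 70.2, 67.2, 70.6 and 62.8 CPM on AL, at 60.9, 60.9, 63.4 and 65.3 CPM on DR, and at 61.0, 72.8, 62.9 and 63.6 CPM on KD. Of the AL libraries 3 were above all DR libraries and 1 was among them (log2 fold change -0.11, unadjusted p = 0.038, adjusted p = 0.245). The brain-type phosphorylase Pygb, glycogen synthase Gys1, the branching enzyme Gbe1 and Ppp1r3c, a phosphatase subunit that targets glycogen, had log2 fold changes between -0.06 and 0.08 on DR against AL. On KD against AL the 5 glycogen genes lay between -0.06 and 0.08, and on DR against KD between -0.13 and 0.10.

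**Figure D3:**
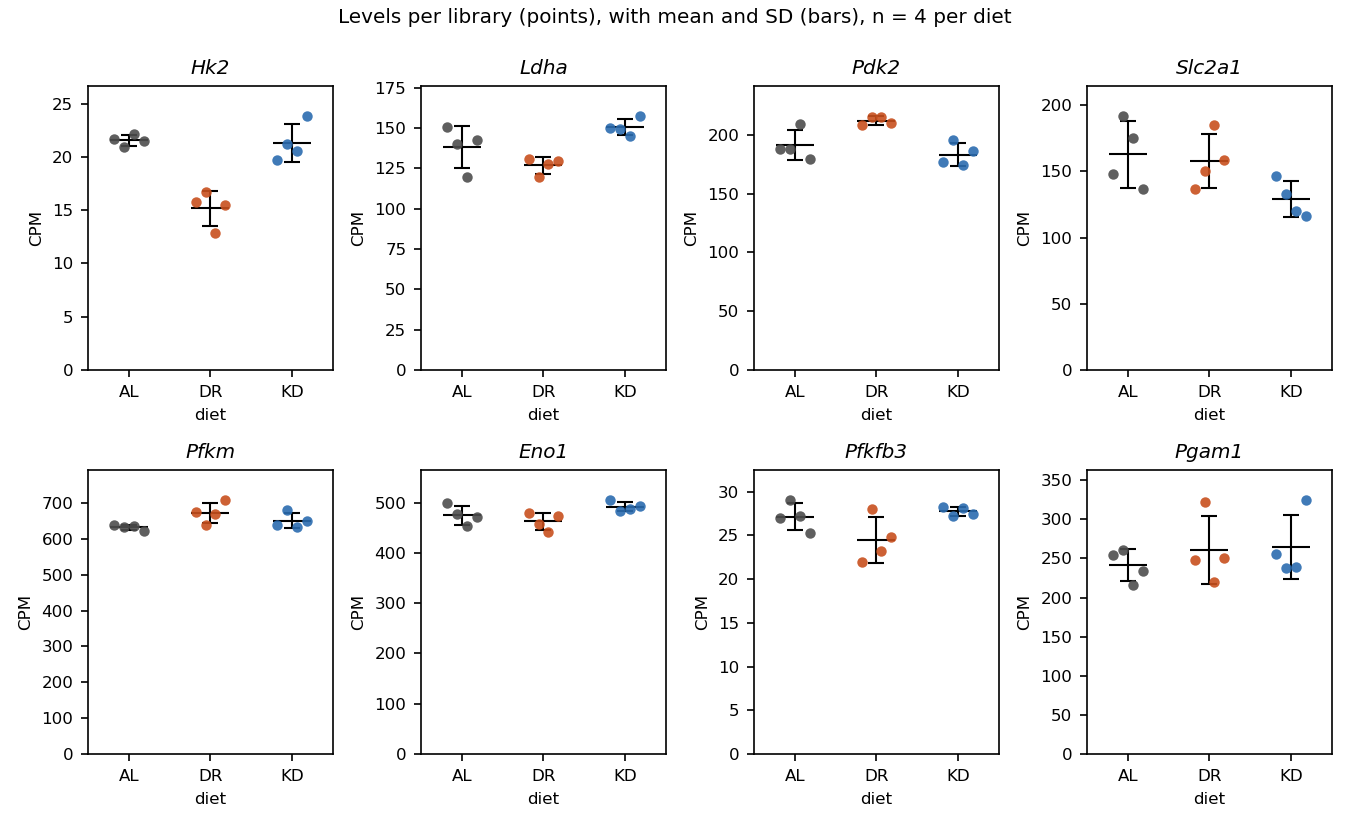
CPM per library (points) with mean and SD (black bars, n = 4 per diet) for 8 members. Hk2 on DR (12.9 to 16.7 CPM) lies apart from AL and KD, Ldha and Pdk2 separate DR from KD only, and Pgam1 has 1 high library on DR (322) and 1 on KD (324).

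Shares within families were computed per kb of gene length, as a description with no test. Their size depends on the annotated lengths. In CPM, for example, Slc2a3 was above Slc2a1 on AL (means of 187 and 163). Hk2 made up 7.79 ± 0.340% of the 2 hexokinases on AL, 5.58 ± 0.766% on DR and 7.77 ± 0.743% on KD (SD, n = 4 each), and the DR libraries (4.50 to 6.27%) did not reach those of AL (7.42 to 8.20%) or KD (7.26 to 8.87%). Ldha was 14.1 ± 0.397% of the lactate dehydrogenases on DR, 15.7 ± 0.786% on AL and 16.6 ± 0.285% on KD. Here too the DR libraries, at 13.6 to 14.5%, lay below those of AL (14.8 to 16.5%) and KD (16.3 to 16.9%), although the level of Ldha itself overlapped between DR and AL. Pdk2 held 90.6 ± 0.560% of the kinases on DR, 89.2 ± 0.962% on AL and 88.2 ± 0.482% on KD. Pfkl, the liver-type phosphofructokinase, took 7.30 to 7.63% of its family on DR and 7.82 to 8.22% on AL, and Pygm 38.6 to 40.2% of the phosphorylases on DR and 41.0 to 42.6% on AL. Slc2a1 formed 58.9 ± 2.41% of the 2 transporters on KD, against 64.0 ± 4.04% on AL and 62.5 ± 3.04% on DR, with overlapping libraries.

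**Figure D4:**
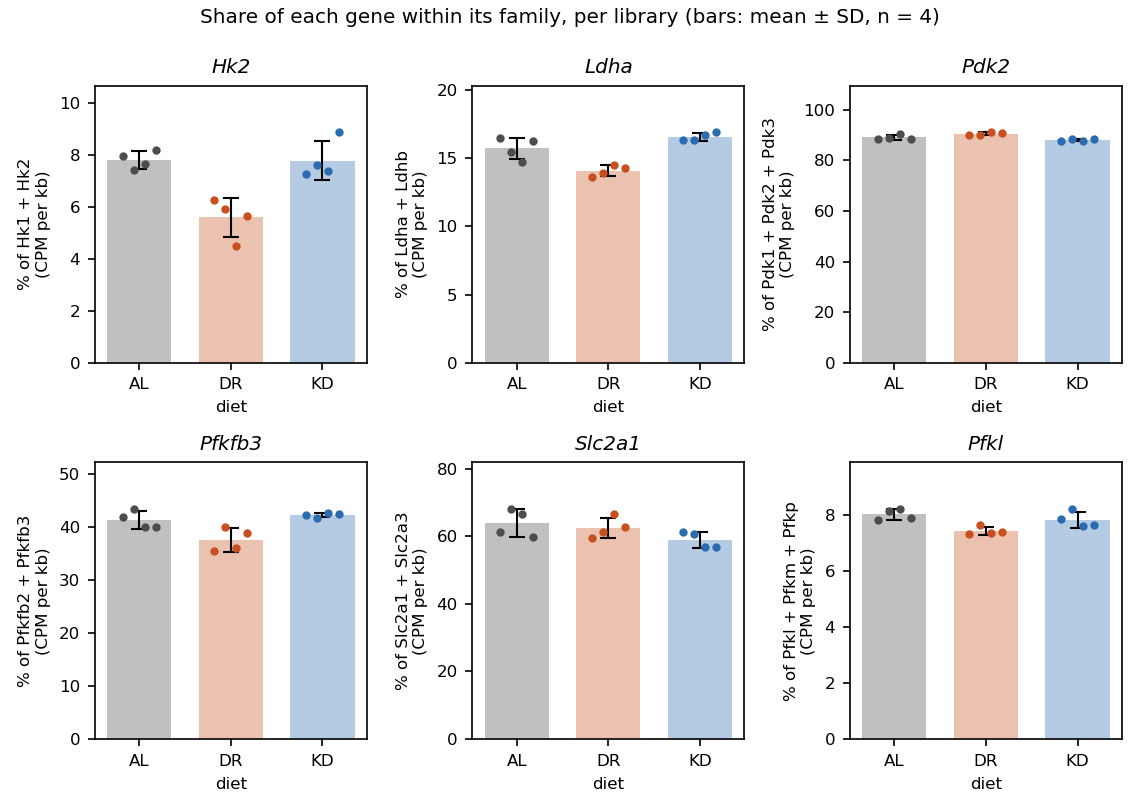
Share of 6 genes in the summed CPM per kb of their family, in percent, per library (points) with mean (bars, from 0) and SD (lines, n = 4 per diet). The DR libraries of Hk2 (4.50 to 6.27%) and Ldha (13.6 to 14.5%) lie below all AL and KD libraries, whereas the share of Slc2a1 overlaps between diets.

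The upstream sequences of the 3 called members are shown. In the main pair fits Hk2 was called lower on DR than on both other diets. Ldha (lower) and Pdk2 (higher) were called on DR against KD only. All 3 hold letters found in glucose- and hypoxia-regulated promoters, as did 18 of the 30 members searched. ACGTG is the core of the hypoxia response element, and CACGTG is the E-box read by MYC and, in paired form, by the glucose-responsive factors MLX, MLXIP and MLXIPL. Both strands were searched, CACGT being ACGTG on the other strand, and each CACGTG holds ACGTG on both strands. The 250 bases before the RefSeq start site follow (GRCm38.p6), written along the gene's strand with these letters in capitals. They are chr6:82774455-82774704 (minus strand) for Hk2, chr7:46845554-46845803 (plus strand) for Ldha and chr11:95041372-95041621 (minus strand) for Pdk2.
Hk2: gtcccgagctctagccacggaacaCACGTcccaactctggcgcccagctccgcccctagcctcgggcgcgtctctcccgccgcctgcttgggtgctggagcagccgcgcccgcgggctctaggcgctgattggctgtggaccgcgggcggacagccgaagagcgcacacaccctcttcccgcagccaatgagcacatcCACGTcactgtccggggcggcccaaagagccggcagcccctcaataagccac
Ldha: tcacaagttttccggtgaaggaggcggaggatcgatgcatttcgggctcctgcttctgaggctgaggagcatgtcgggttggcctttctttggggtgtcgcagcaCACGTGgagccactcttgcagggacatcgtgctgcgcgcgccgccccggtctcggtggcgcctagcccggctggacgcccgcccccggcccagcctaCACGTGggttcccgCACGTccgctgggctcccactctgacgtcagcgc
Pdk2: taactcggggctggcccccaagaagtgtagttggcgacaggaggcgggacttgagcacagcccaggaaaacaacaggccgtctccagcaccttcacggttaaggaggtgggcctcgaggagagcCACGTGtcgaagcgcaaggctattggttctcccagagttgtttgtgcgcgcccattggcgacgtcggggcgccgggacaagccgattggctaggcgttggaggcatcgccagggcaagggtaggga

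Counted from the start site, with -1 as the base before it, the matches begin at -226 and -52 in Hk2, at -145, -48 and -34 in Ldha and at -126 in Pdk2. Those of Ldha at -145 and -48 and that of Pdk2 are full CACGTG. A second RefSeq start site of Ldha and one of Pdk2 have no match in their windows. Over all windows of 250 bases before to 50 after a start site, ACGTG was found in 22 of the 45 windows of 30 members (48.9%) and in 19.6% of 32851 windows genome-wide. Counted by gene, 18 of the 30 members had it. CACGTG was found in 6 of the 45 (13.3%) and in 7.15% of all. The windows were not matched on base composition, and members with the letters include genes that differed between diets and genes that did not. A match is a description of the sequence and does not show a binding site.

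Genes next to the 31 members in the same pathways were read from the same fits. Of 19 other genes of glucose transport and glycolysis tested between DR and AL, 1 was called (Gapdhs, higher). Among 13 genes of pyruvate dehydrogenase and of pyruvate or lactate transport and 23 further glycogen genes none was called. In the pentose phosphate and gluconeogenesis list 1 of 11 was (Pck2, higher), and among 22 regulators and targets of glucose and hypoxia signaling 1 was (P4ha1, lower). On DR against KD, 20, 13, 23, 12 and 22 genes of these lists were tested, and Gapdhs, Pdk4, none, Pck2 and, in the last list, Txnip (higher) and P4ha1 (lower) were called. No gene of these lists was called on KD against AL. The median log2 fold changes of the 5 lists lay between -0.03 and 0.05 in the 3 comparisons.

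Txnip, which encodes an inhibitor of glucose uptake and is switched on by glucose through MLXIP and MLXIPL, had the largest difference of these genes. It was at 20.9, 22.0, 34.5 and 25.1 CPM on DR and at 14.7, 10.6, 11.7 and 8.73 CPM on KD. The AL libraries, at 13.3, 25.5, 16.4 and 9.82 CPM, spread over both. Every DR library was above every KD library, with a log2 fold change of 1.16 (standard error 0.15, 95% interval 0.84 to 1.49, adjusted p = 0.000448 in edgeR's test), while DR against AL gave 0.65 (standard error 0.22, adjusted p = 0.128) and KD against AL -0.51 (standard error 0.22, adjusted p = 0.994). Without AL replicate 2, at 25.5 CPM, the difference between DR and AL was 0.96 and was called (adjusted p = 0.017). An antisense gene covers 19.4% of the exonic bases of Txnip, so its level is uncertain. Pdk4, the kinase that fasting and fatty acids induce in muscle and heart, was at 9.69, 16.6, 11.6 and 8.43 CPM on AL, at 10.96, 12.2, 15.5 and 14.4 CPM on DR and at 10.6, 8.08, 9.002 and 8.01 CPM on KD. Its DR libraries were above its KD libraries (log2 fold change 0.57, standard error 0.11, adjusted p = 0.00802), and AL overlapped with both. Without the filter on low counts edgeR called Txnip against AL on DR (adjusted p = 4.44e-15) and on KD (4.91e-06), and Pdk4 on KD (0.0139). The log2 fold changes of Txnip stayed at 0.65 and -0.51. That setting called 1258 genes on DR against AL and 118 on KD against AL, where the main fits called 583 and none. In 1 fit on all 12 libraries the adjusted p for Pdk4 between DR and KD was 0.0514.

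Pck2, the mitochondrial phosphoenolpyruvate carboxykinase and a target of the amino acid stress factor ATF4, was at 33.5, 35.3, 39.3 and 34.9 CPM on AL and at 35.5, 37.7, 31.6 and 32.7 CPM on KD. On DR it was at 45.1, 46.2, 44.0 and 44.3 CPM, above every other library, with a log2 fold change of 0.33 against AL (standard error 0.05, adjusted p = 0.00574) and 0.39 against KD (standard error 0.06, adjusted p = 0.000963). P4ha1, a collagen prolyl hydroxylase induced by hypoxia, was at 48.1, 46.3, 40.7 and 56.0 CPM on AL, at 45.2, 46.0, 50.3 and 49.5 on KD and at 36.0, 34.5, 34.3 and 38.0 on DR. Its DR libraries were below all others, at log2 fold changes of -0.42 against AL (standard error 0.08, adjusted p = 0.0107) and -0.42 against KD (standard error 0.05, adjusted p = 0.000391). Gapdhs, the sperm form of glyceraldehyde 3-phosphate dehydrogenase, was at 22.3 to 24.6 CPM on DR, 18.5 to 20.6 on AL and 18.6 to 20.6 on KD. It was higher on DR at log2 fold changes of 0.27 against AL (adjusted p = 0.0288) and 0.22 against KD (adjusted p = 0.0443), and overlaps an antisense gene over 10.1% of its exonic bases. Against AL it was called in 2 of the 8 fits that left out a library and against KD in none. Aldoc, the aldolase of Bergmann glia and of a subset of Purkinje cells, had means of 1647 ± 141 CPM on AL, 1722 ± 93.1 on DR and 1656 ± 84.9 on KD (SD, n = 4 each), and its interval between DR and AL ran from -0.07 to 0.20 on the log2 scale.

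**Figure D5:**
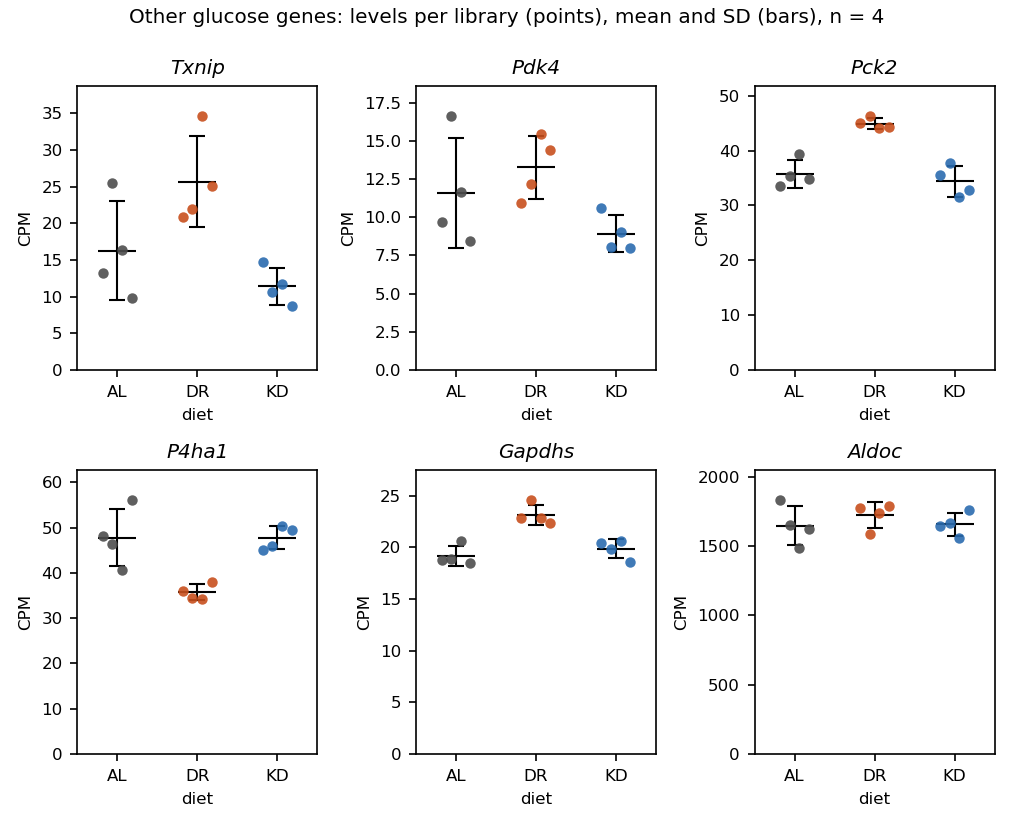
CPM per library (points) with mean and SD (black bars, n = 4 per diet) for 6 further genes of glucose metabolism. Pck2 on DR (44.0 to 46.2 CPM) lies above and P4ha1 on DR (34.3 to 38.0 CPM) below every AL and KD library, Txnip and Pdk4 separate DR from KD with AL spread over both, and Aldoc overlaps throughout.

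Reads of some members can be shared with near-identical copies. Besides Pgam1, more than 10% of the 150-base windows were shared in Pgk1 (49.4%, with Pgk1-rs7), Gapdh (18.1%, with Gm7336), Eno1 (16.5%, with Eno1b) and Pfkfb2 (13.4%, with Gm29427). The copies had 9.55% as many reads as Pgk1, 16.3% as many as Gapdh, 16.03% as many as Eno1 and 0.599% as many as Pfkfb2. Exons of other genes cover over 10% of the exonic bases in Gpi1, Pfkm, Pkm, Pdha1 and Pfkfb2. Of 11 annotated processed copies (Eno1b and genes with a member's symbol and -ps), 4 had enough reads to be tested between DR and AL and none was called in any comparison. In 18 of the 31 members, including Hk2, Ldha, Pdk2 and Slc2a1, no window was shared. The sources used here do not say whether reads were counted by strand, so genes that overlap on opposite strands may share reads too.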

How the data were processed

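Poly(A) RNA of 12 pieces of cerebellar cortex was sequenced from both ends, 150 bases each. The authors trimmed reads with Trimmomatic 0.39, aligned them with STAR 2.7.0f to GRCm38.p6 and counted them per GENCODE gene with featureCounts (Subread 1.6.4), and the deposited values are raw counts without normalization. Between 31712084 and 40798644 reads per library were counted. Low genes were dropped by filterByExpr (10 reads at minimum, 15 in total), TMM factors were computed, and edgeR 4.0.16 in R 4.3.3 gave the tests (quasi-likelihood, Benjamini-Hochberg adjusted, threshold 0.05), each pair of diets on its own 8 libraries and the 3 diets on all 12. CPM use the TMM factors of all 12 libraries, and lengths are those of the count table. Intervals (95%) come from the standard error of the quasi-likelihood fit. Symbols were matched for 54723 of 54752 genes. Aldoa names 2 gene IDs, and the one with 99.8% of the reads was used. Shared windows and overlaps were computed from GENCODE M21 transcripts, and upstream sequences are from RefSeq (GRCm38.p6). All 18 pairs of libraries within a diet differed by more than counting error (chi-square per gene 4.95 to 11.6), so none was a re-sequenced copy of another. Whether libraries came from separate mice cannot be read from that check. AL and DR libraries were separate mice, whereas for KD the labels list separate samples, so that p-values measure the spread between libraries. The procedure was tested on simulated counts.

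The 31 members, the other lists and the rules for naming genes were chosen with earlier results of these data known. Library values are given for members that were called, did not overlap between diets or had one of the 5 lowest p-values of a comparison, and for pathway genes called in any pair plus Pdk4, Txnip and Aldoc. Alternatives were RLE factors, scaling by library size only, no filter on low counts, DESeq2 1.42.0, 1 fit on all 12 libraries and leaving out each library in turn. Some cell type markers that were called are not reported here by name.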

Additional observations from a re-analysis of the deposited data

Results flagged for a closer look

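In 4 of 111 groups of 4 libraries, 1 library stood apart from the other three by more than Dixon's critical value at the 95% level, where chance gives about 1 in 20 groups. Pfkl was at 128 CPM in DR replicate 4 and at 120.3 to 121 CPM in the other DR libraries. Pdha1 was at 129 CPM in KD replicate 4 and at 123 in each of the others. Pdhb was at 163 CPM in DR replicate 3, below the 193 to 195 CPM of the other DR libraries. Pfkfb2 was at 39.4 CPM in AL replicate 3, above the 35.9 to 36.5 CPM of the other AL libraries. None of these 4 genes was called in any comparison.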

How the results depend on the processing

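Hk2 was called on DR against AL and against KD under all alternatives and with any library left out. No paired analysis was possible because the labels give no replicate numbers shared between diets. Genes called on DR against AL numbered 1258 without the filter on low counts, 1014 with DESeq2 and 235 to 712 with a library left out (members 1 to 3, the 3 without AL replicate 3). On KD against AL they numbered 118 (1 member, Slc2a1) without the filter, 10 with DESeq2 and 0 to 6 with a library left out. On DR against KD they were 1503 without the filter and 467 to 946 with a library left out. Over the 3 diets they were 1692 without the filter, 1495 with DESeq2 and 404 to 1066 with a library left out (members 1 to 4). Differences near 0 changed sign with a library left out. On DR against AL these were Slc2a1 (-0.133 to 0.0405 log2), Pgam1 (-0.0100 to 0.179) and Pdk1 (-0.0717 to 0.0327). On KD against AL they were Slc2a3 (-0.0306 to 0.00136), Hk2 (-0.0740 to 0.0205), Pfkfb2 (-0.0350 to 0.0122), P4ha1 (-0.0663 to 0.0835, and -0.000541 in 1 fit on all 12 libraries) and Aldoc (-0.0366 to 0.0621), and on DR against KD Pgam1 (-0.140 to 0.0913) and Pygm (-0.0843 to 0.00389). The cause was not tested. With 4 libraries a diet, the widest interval of a member reached 0.22 log2 units to either side, so smaller differences can have been missed. Larger differences can have been missed too. Slc2a1 stayed uncalled at -0.33 on KD against AL and at 0.29 on DR against KD.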

Other observations

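Within each diet, the library with the highest level was the same for Slc2a1, Txnip and Pdk4. It was AL replicate 2 (191 CPM of Slc2a1, 25.5 of Txnip and 16.6 of Pdk4), DR replicate 3 (185, 34.5 and 15.5 CPM) and KD replicate 1 (146, 14.7 and 10.6 CPM). DR replicate 3 was also the lowest DR library in Hk2, at 12.9 CPM, while AL replicate 2 was the lowest AL library and KD replicate 1 the lowest KD library in the same gene, at 20.9 and 19.7 CPM. This pattern was noticed after the values were seen and was not tested.

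Slc16a1, which encodes the monocarboxylate transporter MCT1 that carries lactate and ketone bodies across the blood-brain barrier, is named here after its values were seen. It was at 36.4, 34.7, 37.2 and 37.8 CPM on KD, at 32.1, 29.5, 29.8 and 28.8 CPM on AL and at 34.1, 37.4, 28.5 and 27.7 CPM on DR. All KD libraries were above all AL libraries, and the DR libraries overlapped with both. On KD against AL the log2 fold change was 0.28 (95% interval 0.17 to 0.39), and edgeR's test gave an unadjusted p of 5.42e-05 and an adjusted p of 0.224, so Slc16a1 was not called.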
